A study of Mus musculus with 6 samples.

Results

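Secreted angiogenic factors and the transcription factors of the hypoxia response were examined in mature adipocytes (AC) and in dedifferentiated fat (DFAT) cells. The genes were Vegfa, Vegfb, Vegfc, Pgf, Angpt1, Angpt2, Hif1a and Epas1, and every probe set whose annotation gives 1 of these as its only gene symbol was taken. This gave 17 of the 45037 probe sets tested and 8 of the 18193 genes that they represent. RNA of both cell types was hybridized to Affymetrix GeneChip Mouse Genome arrays in a study that searched for regulators of hepatocyte fate. Its 3 AC arrays held RNA of primary adipocytes isolated from mouse fat tissue, with no treatment named. Its 3 DFAT arrays held RNA of such adipocytes after ceiling culture, in which floating fat-laden cells attach to the roof of a flask and lose their lipid. The methods describe DFAT as 1 preadipocyte line established from GFP transgenic mice, an origin that is not given for AC, and the sources used here name no age, sex or strain for either group. No source says that replicate arrays stand for different mice or cultures, so each p-value speaks only of the spread among the arrays at hand, which may be technical.

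Vascular endothelial growth factors are secreted proteins that act on receptor tyrosine kinases of blood and lymphatic vessels, and angiopoietins act on the receptor Tie2 (encoded by Tek) to steady or loosen the vessel wall. Hypoxia-inducible factors are pairs of an oxygen-labile alpha subunit, such as HIF-1α (Hif1a) or HIF-2α (Epas1), and the stable subunit ARNT. Prolyl hydroxylases and the VHL ligase mark the alpha subunits for destruction when oxygen is present, so that the amount of the protein need not follow the mRNA measured here. In fat, growth of the tissue goes together with growth of its capillaries, and adipocytes are a known source of VEGF-A.

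The 250 bases before the annotated start of each gene were read for the core of a hypoxia response element, the letters ACGTG or GCGTG on either strand, which appear as CACGT or CACGC when the match lies on the other strand. RefSeq promoters of GRCm38.p6 were given for 5 of the 8 genes, 7 in all, and not for Angpt1, Angpt2 and Epas1. Promoters of Vegfa, Vegfb, Pgf and Hif1a are shown, and that of Vegfc and those of second starts are only described. Matched letters are in capitals. All are written 5′ to 3′ on the strand of the gene.
Vegfa, chr17:46032378-46032627, minus strand: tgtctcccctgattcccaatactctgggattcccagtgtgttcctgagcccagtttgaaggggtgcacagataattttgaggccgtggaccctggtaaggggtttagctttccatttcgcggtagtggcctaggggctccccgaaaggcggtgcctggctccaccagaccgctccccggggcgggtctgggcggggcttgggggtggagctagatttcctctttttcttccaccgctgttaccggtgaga
Vegfb, chr19:6987652-6987901, minus strand: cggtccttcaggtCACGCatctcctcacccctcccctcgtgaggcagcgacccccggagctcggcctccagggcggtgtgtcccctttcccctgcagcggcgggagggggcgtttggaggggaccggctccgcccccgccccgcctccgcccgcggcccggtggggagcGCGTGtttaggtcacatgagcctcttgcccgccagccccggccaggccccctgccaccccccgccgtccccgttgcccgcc
Pgf, chr12:85177314-85177563, minus strand: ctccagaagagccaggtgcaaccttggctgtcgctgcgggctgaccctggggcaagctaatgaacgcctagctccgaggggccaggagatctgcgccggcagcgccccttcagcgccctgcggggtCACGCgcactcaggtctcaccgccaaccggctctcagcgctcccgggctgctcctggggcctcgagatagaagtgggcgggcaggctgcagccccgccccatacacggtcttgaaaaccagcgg
Hif1a, chr12:73907617-73907866, plus strand: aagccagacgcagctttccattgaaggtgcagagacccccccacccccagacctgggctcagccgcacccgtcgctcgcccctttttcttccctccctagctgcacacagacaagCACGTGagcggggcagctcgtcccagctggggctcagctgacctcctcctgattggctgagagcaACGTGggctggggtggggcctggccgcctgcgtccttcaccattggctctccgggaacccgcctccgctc
Vegfb held 2 matches, which begin 237 and 81 bases before the start. Pgf held 1, at 124 bases. Hif1a held a palindrome CACGTG, counted on both strands at 135 and 134 bases, and a further match at 70 bases. The window of Vegfa held 0, and so did that of Vegfc at chr8:54077282-54077531 and that of a second start of Pgf at chr12:85175983-85176232. A second start of Vegfa, at chr17:46025164-46025413, had 2 matches, in a window that lies inside the gene as transcribed from the first start. Matches were thus present in 4 of the 7 promoters, beside 38.6% of all 32851 promoters of this length in the table. A match is a description of letters, not a binding site, and a window without one says nothing of the factor.

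Of the 8 genes, 6 were lower in DFAT cells (Vegfa, Vegfb, Vegfc, Pgf, Angpt2 and Epas1), 1 was higher (Angpt1) and 1 did not pass the test (Hif1a), at an adjusted p under 0.05 in limma, a linear model with moderated variances fitted over all probe sets. Among all genes, 46.4% were called in either direction, 22.6% higher and 23.8% lower in DFAT cells, so that a call is common between these cell types. Of the called probe sets 52.9% were higher in DFAT cells, a share that became 63.0% after centring on array medians, 41.9% on reference genes and 78.5% on hybridization controls. The arrays of the groups did not overlap in 7 of the 8 genes, beside 60.0% of all genes. By probe set, 11 of the 17 were lower, 2 were higher and 4, all of Hif1a, did not pass, beside 38.4% of all probe sets called, 20.3% higher and 18.1% lower. The groups did not overlap in 14 of the 17, beside 51.9% of all probe sets. The median difference, DFAT minus AC, was -1.15 over the 8 genes and -0.10 over all genes on the log2 scale. Each gene is given by its brightest probe set, judged by the mean of all 6 arrays, and its other probe sets are described beside it. Levels of different probe sets are not compared, as their probes differ in brightness. In RNA from a whole cell population, fewer cells of a type and less RNA per cell cannot be told apart.

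**Figure D1:**
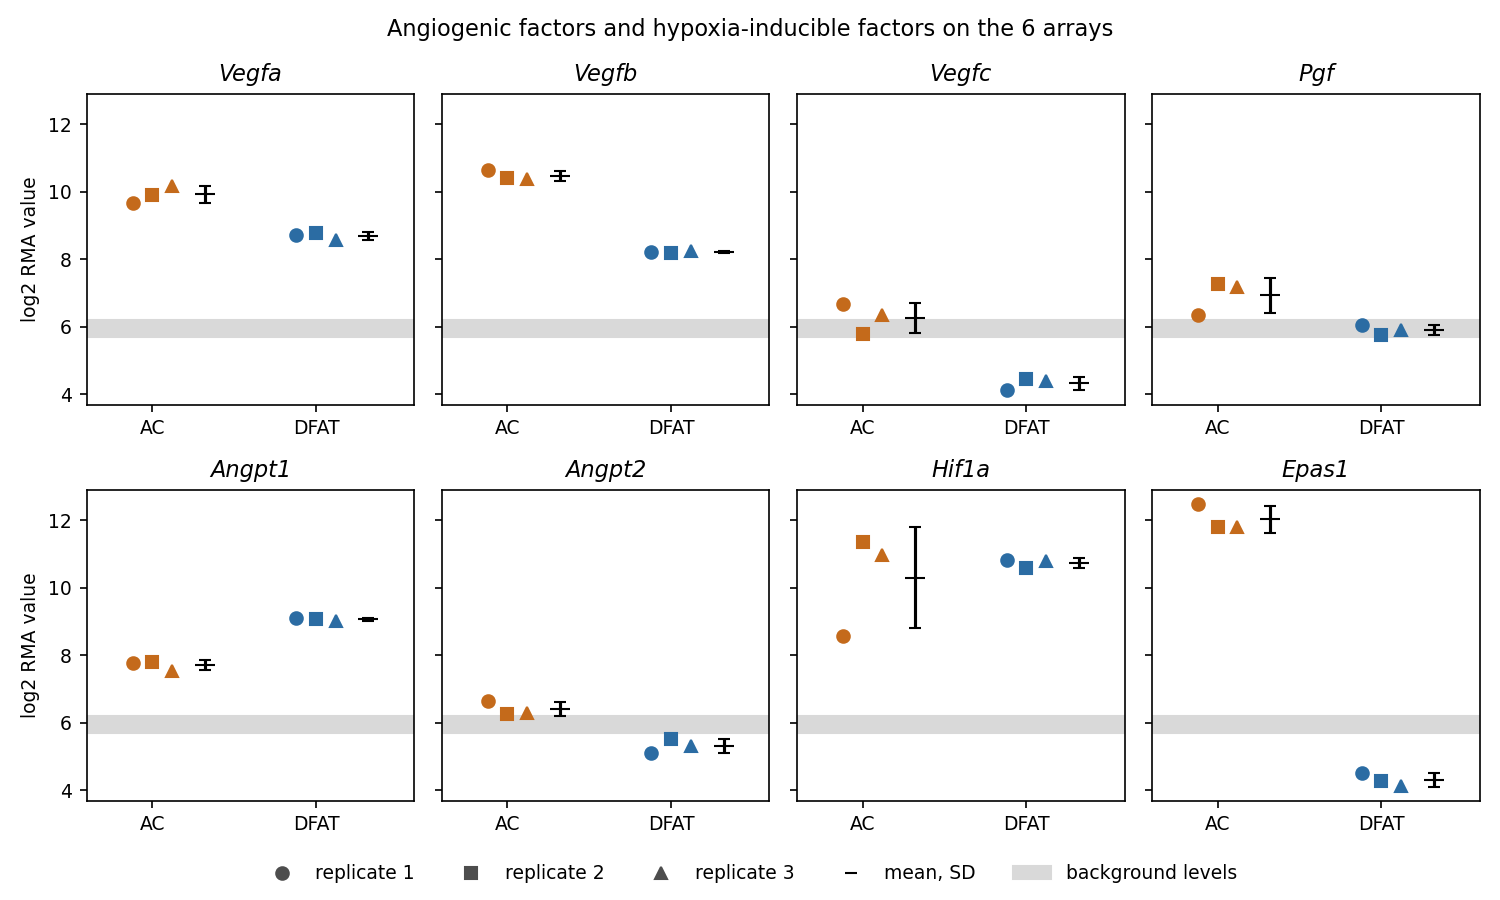
Log2 RMA values (y axis) of the 8 genes on the 3 AC and the 3 DFAT arrays, 1 panel a gene, with the marker giving the replicate number, a bar the mean and SD (n = 3), and a grey band the range of background levels of the 6 arrays, 5.70 to 6.20. Epas1 falls from 11.79 or more to 4.52 or less, under the band, Angpt1 alone lies wholly higher in DFAT cells, and AC replicate 1, at 8.59, stands far below the other AC arrays in Hif1a.

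Before the single genes, the state of the arrays is given. Over all probe sets, AC replicate 1 correlated at r = 0.971 with replicate 2 and 0.969 with replicate 3, while the latter pair gave 0.991 and pairs of DFAT arrays gave 0.995 to 0.996. On this array the mean over 18 endothelial markers was 9.28 against 7.70 and 7.72 on the other AC arrays, and that over 16 macrophage markers was 6.31 against 7.82 and 7.96. Its mean was also highest for epithelial and mammary markers, 9.05 against 8.57 and 8.60, and for pericyte and smooth muscle markers, 8.03 against 7.43 and 7.49. For white adipocyte markers its mean was lowest, 12.70 against 12.87 and 12.82. As a background level, each array got the 95th percentile of its values for 121 probe sets of genes of sense organs and sperm. A gene is called at background in a group when no array of that group exceeds it. All 14 white adipocyte markers were lower in DFAT cells, with a median difference of -7.04, and 9 of them were at background there, while all 12 measured cell cycle genes were higher, with a median of 6.15. Markers of other cells also gave signal in the AC preparations. Above background on at least 1 AC array were 17 of the 18 endothelial and 13 of 16 macrophage markers. So were 12 of 14 epithelial and mammary markers and 9 of 10 pericyte and smooth muscle markers. At background on all AC arrays were 3 of 4 lymphatic endothelial markers, beside 7943 of all 18193 genes. Not every marker was lower in DFAT cells, as Krt19 had means of 9.74 in AC and 9.78 in DFAT cells. Of the pericyte and smooth muscle markers 8 were lower in DFAT cells, among them Rgs5 at -7.03, and 2 were higher, Pdgfrb at 3.61 and Cnn1 at 3.96. The part of such other cells in the differences of the 8 genes was not tested. Of the 8 genes, 0 were at background in AC and 3 were in DFAT cells, namely Vegfc, Angpt2 and Epas1, with levels of 5.98 to 6.20 on AC and 5.70 to 5.82 on DFAT arrays.

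Vegfa encodes VEGF-A, the main growth signal for endothelial cells. The log2 values were 9.68, 9.92 and 10.17 in AC, and in DFAT cells they were 8.72, 8.79 and 8.57. Every DFAT array was below every AC array. The difference was -1.23 (95% confidence interval -1.60 to -0.85, n = 3 per group, limma adjusted p = 0.000545), a 2.34-fold lower signal. A second probe set of the gene gave 9.05, 9.57 and 9.69 in AC, against 8.39, 8.53 and 8.32 in DFAT cells, a fall of the same direction (difference -1.02, limma adjusted p = 0.00334). Centring the arrays on the spiked-in hybridization controls ended the call of Vegfa (difference -0.76, limma adjusted p = 0.0653).

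Vegfb encodes VEGF-B, a ligand of VEGFR1 that is abundant in heart, muscle and brown fat. AC gave 10.65, 10.41 and 10.37, while DFAT cells gave 8.23, 8.19 and 8.23. The DFAT arrays were close together and all far under the AC arrays. The difference was -2.26 (95% confidence interval -2.56 to -1.95, n = 3 per group, limma adjusted p = 6.28e-06), a 4.78-fold lower signal, and this gene has no second probe set on the array. Of Vegfa, Vegfb and Pgf, it had the largest fall. Vegfc was at background in DFAT cells and its interval overlaps that of Vegfb, so these falls are not ordered. The log2 ratio of Vegfa over Vegfb within an array rose by 1.03, from -0.55 ± 0.39 in AC to 0.48 ± 0.13 in DFAT cells (SD, n = 3), and the groups did not overlap. This ratio rests on 1 probe set per gene. Probe sets of the same gene can differ in the size of a change, as for Epas1 below. The shift therefore does not settle whether the 2 genes moved unequally. The exact permutation test of this ratio gave p = 0.1, the smallest that 3 against 3 arrays allow, and 0.125 after adjustment over the 5 ratios computed.

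Vegfc encodes VEGF-C, the growth factor of lymphatic vessels that acts through VEGFR3. Its values were 6.67, 5.78 and 6.35 in AC, against 4.12, 4.46 and 4.40 in DFAT cells. Only 2 of the AC arrays were above background and none of the DFAT arrays was, although the groups stayed apart. The difference was -1.94 (95% confidence interval -2.48 to -1.40, limma adjusted p = 0.000327), and the other probe sets of the gene gave -2.16 and -1.64. Of these, the former was above background on only 1 AC array and the latter was at background on all 6 arrays. The suffix _x_at of the probe set shown marks probes that may also bind other transcripts. With every value under the highest background level of the 6 arrays, 6.20, set to that level on every array (a common floor), the difference shrank to -0.21 (limma adjusted p = 0.390), so the size of the fall rests on signal at or under background.

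Pgf encodes placental growth factor, a further ligand of VEGFR1. AC measured 6.34, 7.29 and 7.17, while DFAT cells measured 6.07, 5.75 and 5.91. AC replicate 1 lay close to the DFAT arrays but above all of them. The difference was -1.02 (95% confidence interval -1.61 to -0.44, n = 3 per group, limma adjusted p = 0.0136). Pgf was the called member closest to the threshold, and it was lost without AC replicate 3 (limma adjusted p = 0.0518), without DFAT replicate 2 (limma adjusted p = 0.0566), with hybridization controls (difference -0.56, limma adjusted p = 0.253), with that floor (difference -0.74, limma adjusted p = 0.240) and with the methods' t-test, which they name for data other than the arrays (adjusted p = 0.0840). The log2 ratio of Pgf over Vegfa changed by 0.20 with overlapping groups (exact permutation p = 0.7, 0.7 after adjustment), and by 0.49 with the common floor. The log2 ratio of Vegfc over Vegfa has no settled direction, as Vegfc was at background in DFAT cells. It changed by -0.71 as deposited (exact permutation p = 0.1, 0.125 after adjustment), by -0.39 without AC replicate 1 and by 1.02 with the common floor.

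The 2 angiopoietins moved in opposite directions. Angpt1 encodes the agonist of Tie2, which keeps vessels quiescent and is usually made by mesenchymal cells around the vessel. Its values were 7.78, 7.81 and 7.54 in AC, against 9.11, 9.06 and 9.02 in DFAT cells. All DFAT arrays were above all AC arrays. The difference was 1.36 (95% confidence interval 1.05 to 1.67, n = 3 per group, limma adjusted p = 0.000109), a 2.56-fold higher signal. The second probe set gave 4.50, 4.62 and 4.69 in AC, under background, and 6.65, 7.11 and 6.78 in DFAT cells, all above it (difference 2.24, limma adjusted p = 1.62e-05).

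Angpt2 encodes the context-dependent antagonist of Tie2, a product mainly of activated endothelium. It gave 6.64, 6.27 and 6.30 in AC, against 5.11, 5.53 and 5.32 in DFAT cells. All AC arrays were above background and no DFAT array was. The difference was -1.08 (95% confidence interval -1.47 to -0.69, n = 3 per group, limma adjusted p = 0.00133). With hybridization controls it was -0.62 (limma adjusted p = 0.0595) and with the common floor -0.21 (limma adjusted p = 0.390), and both ended the call. The second probe set, at background in both groups, differed by -0.59. The log2 ratio of Angpt2 over Angpt1 within an array was -1.31 ± 0.20 in AC and -3.75 ± 0.24 in DFAT cells (SD, n = 3), a change of -2.44 with no overlap (exact permutation p = 0.1, the smallest possible, and 0.125 after adjustment). Because Angpt2 was at background in DFAT cells, the size of this change depends on that level, and it was -1.56 with the common floor.

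Epas1 encodes HIF-2α, which is expressed strongly in endothelium and in fat. It had the largest difference of the 8 genes. Its values were 12.49, 11.81 and 11.79 in AC, against 4.52, 4.29 and 4.13 in DFAT cells. It was bright on all AC arrays and under background on all DFAT arrays. The difference was -7.71 (95% confidence interval -8.22 to -7.21, n = 3 per group, limma adjusted p = 1.77e-07). As the DFAT signal gives only an upper bound, the fall is better stated against the highest background level of the 6 arrays, where it was at least 57.1-fold. The second probe set gave 7.02, 7.67 and 7.25 in AC, against 4.64, 4.58 and 4.67 in DFAT cells, also under background there, with a difference of -2.68. With the common floor its difference was -1.12, or 2.17-fold, so the bound of 57.1-fold rests on 1 probe set. The probe sets thus gave 1 direction and very different sizes. Of the 18 endothelial markers, 17 were at background in DFAT cells, and their part in the fall of Epas1 was not tested. Without AC replicate 1, whose endothelial mean was highest, the difference of Epas1 was -7.48. The endothelial means of the other AC arrays, 7.70 and 7.72, were also above those of the DFAT arrays, 4.24 to 4.29.

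Hif1a encodes HIF-1α, the subunit present in most cell types. Its values were 8.59, 11.35 and 10.97 in AC, against 10.83, 10.58 and 10.80 in DFAT cells. All DFAT arrays lay above AC replicate 1 and below the other AC arrays, so the groups overlapped. The mean was 10.30 ± 1.50 in AC and 10.73 ± 0.14 in DFAT cells (SD, n = 3), and the difference of 0.43 did not pass the test (95% confidence interval -1.03 to 1.90, limma adjusted p = 0.635). AC replicate 1 was low on 3 of the 4 probe sets, with 7.17 against 8.54 and 8.41 on the second and 4.47 against 6.01 and 5.88 on the third, and the fourth was at background on all arrays. The DFAT arrays gave 8.66, 8.60 and 8.66 on the second probe set, above all AC arrays (difference 0.60, limma adjusted p = 0.200), and 5.78, 5.78 and 5.83 on the third (difference 0.35, limma adjusted p = 0.513). Without AC replicate 1 the difference turned to -0.42 (95% confidence interval -0.79 to -0.06, limma adjusted p = 0.0572) on the first probe set and was 0.17 (limma adjusted p = 0.273) on the second. The direction of Hif1a was therefore not settled, and the interval allows a change of either sign.

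**Figure D2:**
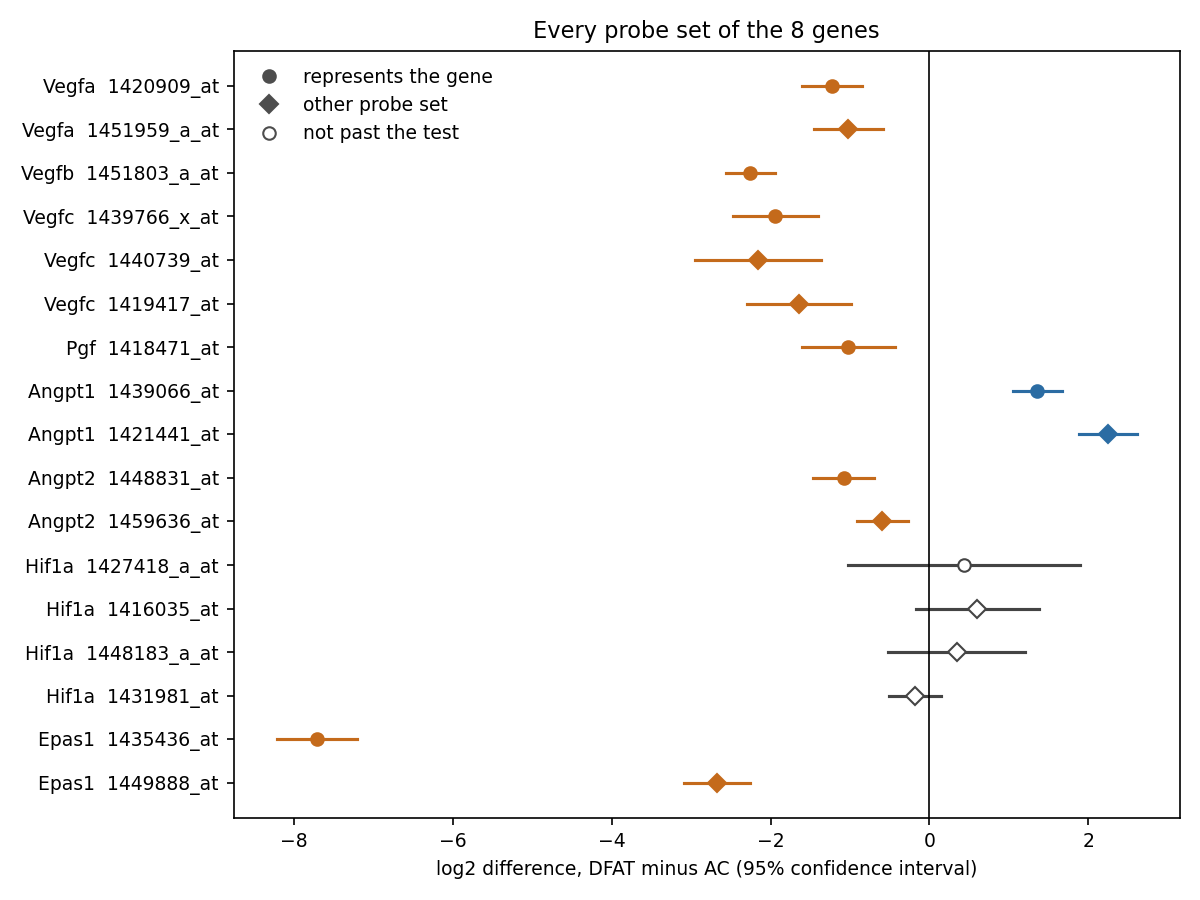
Log2 differences, DFAT minus AC (x axis), of all 17 probe sets of the 8 genes with 95% confidence intervals from limma, circles for the probe set that represents a gene, diamonds for the others, open symbols where the test was not passed, orange lower and blue higher in DFAT cells. Probe sets of a gene share their direction for all genes but Hif1a, whose intervals all include 0, and those of Epas1 differ most in size, at -7.71 and -2.68.

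The log2 ratio of Hif1a over Epas1 moved from -1.73 ± 1.89 in AC to 6.42 ± 0.21 in DFAT cells (SD, n = 3). This change of 8.15 (exact permutation p = 0.1, the smallest possible, and 0.125 after adjustment) came mostly from the fall of Epas1. It includes the value of Epas1 under background and the low Hif1a of AC replicate 1, without which it was 7.06, and it was 6.27 with the common floor.

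Most receptors of these ligands were lower in DFAT cells. Of the 7 measured, 5 passed the test downwards, 1 upwards and 1 did not pass, with a median of -2.54. Over all genes, 23.8% were called lower and 22.6% higher. Tek, Kdr, Tie1 and Flt4 were at background on all DFAT arrays, so the sizes of their falls are not ordered. Tek, which encodes Tie2, gave 9.27, 7.32 and 6.54 in AC and 3.20 to 3.40 in DFAT cells, a difference of -4.42 (limma adjusted p = 0.000613) and of -1.51 with the common floor. Kdr, which encodes VEGFR2, the main signalling receptor of VEGF-A, gave 11.49, 8.68 and 8.73 in AC and 5.07 to 5.67 in DFAT cells, a difference of -4.25 and of -3.44 with the floor. AC replicate 1 was thus far higher than the other AC arrays in both.

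Tie1, a partner of Tie2, differed by -3.30, and by -0.72 with the floor. Of its AC arrays, as of those of Flt4, 1 was above background, that of replicate 1. Flt1, which encodes VEGFR1, the receptor of VEGF-A, VEGF-B and placental growth factor, differed by -2.54, with 1 of its DFAT arrays above background. Flt4, the VEGF-C receptor VEGFR3, differed by -1.37 (limma adjusted p = 0.0336), by -0.35 with the floor and by -0.82 without AC replicate 1, and lost its call when any 1 DFAT array was left out. The coreceptors behaved otherwise, as Nrp2 was higher in DFAT cells (difference 0.95, limma adjusted p = 0.0129) and Nrp1, at -0.47, did not pass (limma adjusted p = 0.0861). The call of Nrp2 ended with a second quantile normalization (difference 0.77, limma adjusted p = 0.0560).

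Array AC replicate 1 was the highest of the AC arrays in 7 of 7 receptors and in 18 of 18 endothelial markers, beside 30.6% of all genes. It was also highest in 10 of 14 epithelial and mammary markers and in 7 of 10 pericyte and smooth muscle markers. All 18 endothelial markers were lower in DFAT cells, with list means of 4.24 to 4.29 on the DFAT arrays. The part of endothelial RNA in the receptor differences was not tested. Without that array the receptors still gave 5 lower and 1 higher, with a median of -1.97. With the common floor, 0 of the 7 passed in limma in either direction, with 2 lower and 1 higher at an unadjusted p under 0.05, and the methods' t-test called 3 lower and 0 higher.

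**Figure D3:**
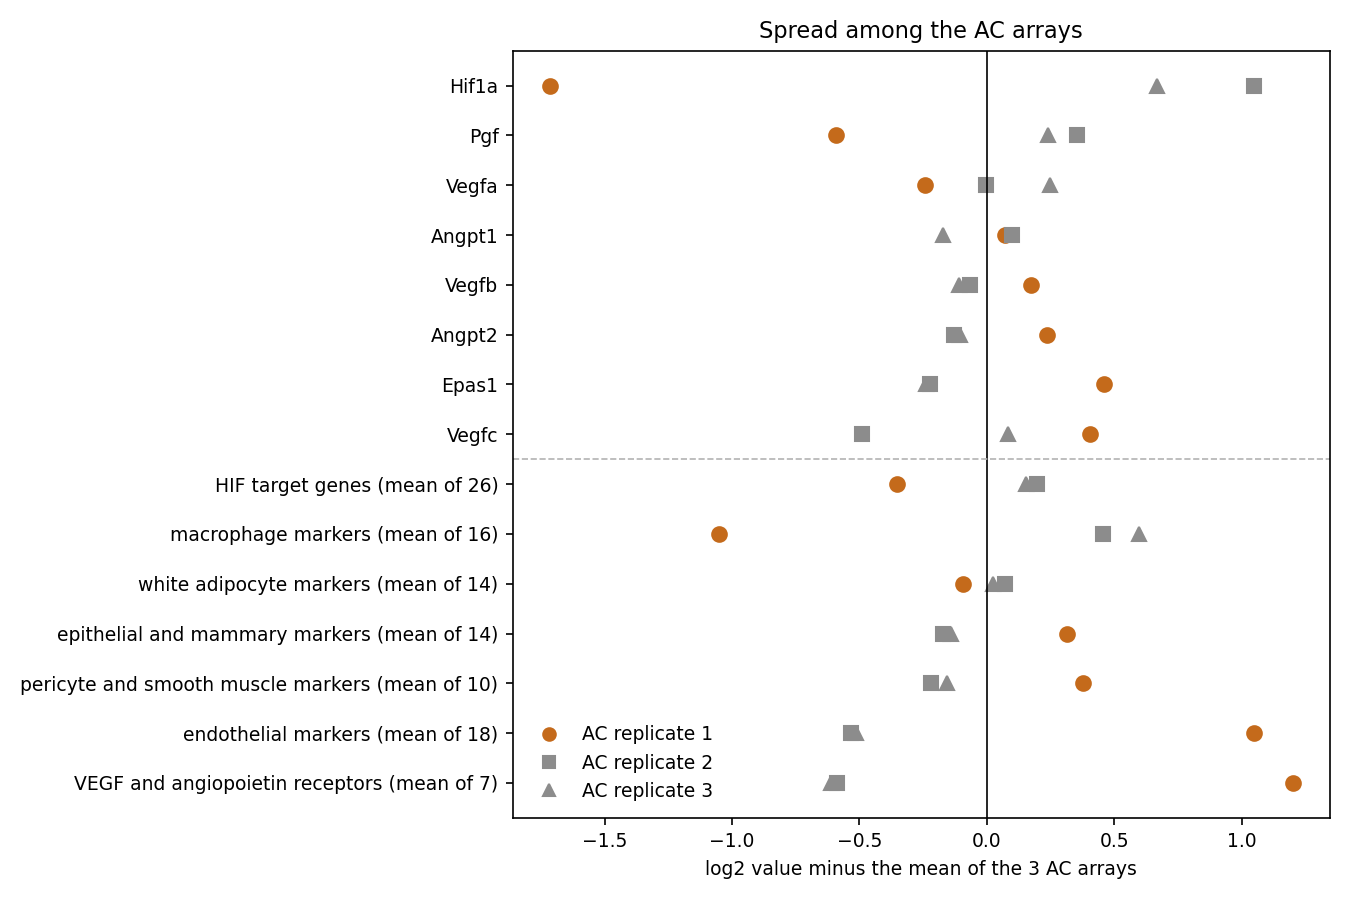
Log2 value of each AC array minus the mean of the 3 AC arrays (x axis) for the 8 genes, above the dashed line, and for the mean over 7 lists, below it, with AC replicate 1 in orange. AC replicate 1 is lowest in Hif1a, Pgf and Vegfa, in the HIF target list and in the macrophage and white adipocyte markers. It is highest in Vegfb, Vegfc, Angpt2, Epas1, the receptors and the endothelial, epithelial and mammary, and pericyte and smooth muscle markers.

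Most partners and regulators of the HIF subunits did not pass the test. Of 15 measured genes 3 were higher, 0 were lower and 12 did not pass in limma, with a median of 0.27. The shares over all genes were 22.6% higher and 23.8% lower. Centring on array medians gave 6 higher and hybridization controls gave 7, with medians of 0.40 and 0.73, and reference genes gave 3 higher and 1 lower, with a median of 0.14. At an unadjusted p under 0.05, limma gave 6 higher and 0 lower, and the methods' t-test called 5 higher and 0 lower. Of the 12 not past the limma test, Arnt, the common partner of both alpha subunits, differed by -0.20 (limma adjusted p = 0.352), and Vhl, the substrate receptor of the ligase, by 0.26 (limma adjusted p = 0.285), both chosen after their values were seen for their central role. The 3 that rose were Cited2, which competes with HIF-1α for its coactivator, at 1.42, and the coactivator genes Ep300 at 0.77 and Crebbp at 0.55. Without AC replicate 1 the list gave 6 higher and 1 lower (Arnt, at -0.34).

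Target genes of the HIF pathway were called in both directions, beside 22.6% of all genes called higher and 23.8% called lower. Of 26 measured out of 28 listed, 10 were higher, 10 were lower and 6 did not pass, with a median of 0.18. This split depended on the scaling, with 13 higher and 7 lower and a median of 0.64 on hybridization controls, and 8 higher and 11 lower and a median of 0.05 on reference genes. The largest rises were P4ha1 at 3.83, Lox at 3.63, P4ha2 at 2.45 and Pgk1 at 1.99. P4ha1 and P4ha2 encode the collagen prolyl hydroxylase subunits and Lox the collagen crosslinking enzyme, while Pgk1 is a glycolytic enzyme. The largest falls were Pfkfb3 at -5.59, Angptl4 at -2.88, Vldlr at -2.80 and Bnip3 at -2.45. Pfkfb3 makes an activator of glycolysis, Angptl4 encodes an inhibitor of lipoprotein lipase, Vldlr a lipoprotein receptor and Bnip3 a mitophagy receptor, and Angptl4 and Vldlr are also known products of fat cells.

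Slc2a1, Hk2 and Adm of this list are named after their values were seen. Slc2a1, which encodes the glucose transporter GLUT1, rose by 1.78 (limma adjusted p = 0.00023), while Slc2a4, which encodes GLUT4 and stands among the white adipocyte markers, differed by -4.78 and was at background in DFAT cells. Hk2, hexokinase 2, gave 9.22, 11.99 and 11.99 in AC and 8.69 to 8.82 in DFAT cells, a difference of -2.31 (limma adjusted p = 0.0276). Adm, the vasodilator peptide adrenomedullin, gave 9.71, 12.36 and 12.39 in AC and 9.42 to 9.56 in DFAT cells, a difference of -1.98 (limma adjusted p = 0.0434). In Hk2 and Adm, AC replicate 1 was far below the other AC arrays, as in Hif1a. Without it the differences were -3.23 for Hk2 and -2.87 for Adm, and the list gave 13 higher and 10 lower, with a median of 0.06. On AC replicate 1, 19 of the 26 targets were below both other AC arrays, beside 48.0% of all genes.

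Other secreted angiogenic factors were measured for 17 of 18 genes, of which 7 were higher, 5 lower and 5 not past the test, with a median of 0.43. Ccn2, connective tissue growth factor, rose most, at 4.44, followed by Ptn, the heparin-binding pleiotrophin, at 2.09, Pdgfa, a growth factor of mesenchymal cells, at 1.62, and Apln, the peptide apelin, at 1.41. Fgf1, a broad fibroblast growth factor that is known from fat, differed by -4.35, Pdgfb, an endothelial signal to pericytes, by -3.40, Egfl7, an endothelial protein, by -1.92, and Mdk, midkine, by -1.66. Of these, Fgf1, Pdgfb and Mdk were at background in DFAT cells, and with the common floor their differences were -1.52, -1.51 and -0.90, so the falls are not ordered. The calls also include Nrg1 and Esm1, which were at background on all 6 arrays. Vegfd, the last VEGF, differed by 0.43 and did not pass (limma adjusted p = 0.138). Without AC replicate 1, which was highest in Pdgfb and Egfl7, the list gave 8 higher and 8 lower, with a median of 0.21. With hybridization controls the median was 0.89, and with the common floor 5 were higher and 2 lower.

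Secreted inhibitors of angiogenesis were measured for 12 of 13 genes, of which 4 were higher, 2 lower and 6 not past the test, with a median of -0.07, which was 0.07 after centring on array medians and 0.40 on hybridization controls. Vash2 at 3.05, Sema3a at 2.23, Serpinf1 at 1.80 and Thbs2 at 1.46 were higher. Vash2 and Sema3a were at background in AC, and with the common floor they differed by 1.49 and 0.54. Serpinf1 encodes pigment epithelium-derived factor, Thbs2 a thrombospondin and Sema3a a guidance protein that binds neuropilin. Vash2 is a relative of vasohibin that has been described as promoting vessels, so it does not do what the name of the list says. Adamts1, a protease that binds VEGF-A, at -2.34, and Col18a1, the source of endostatin, at -0.69, were lower. Both lists of secreted genes thus held calls in each direction, beside 22.6% of all genes called higher and 23.8% called lower.

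**Figure D4:**
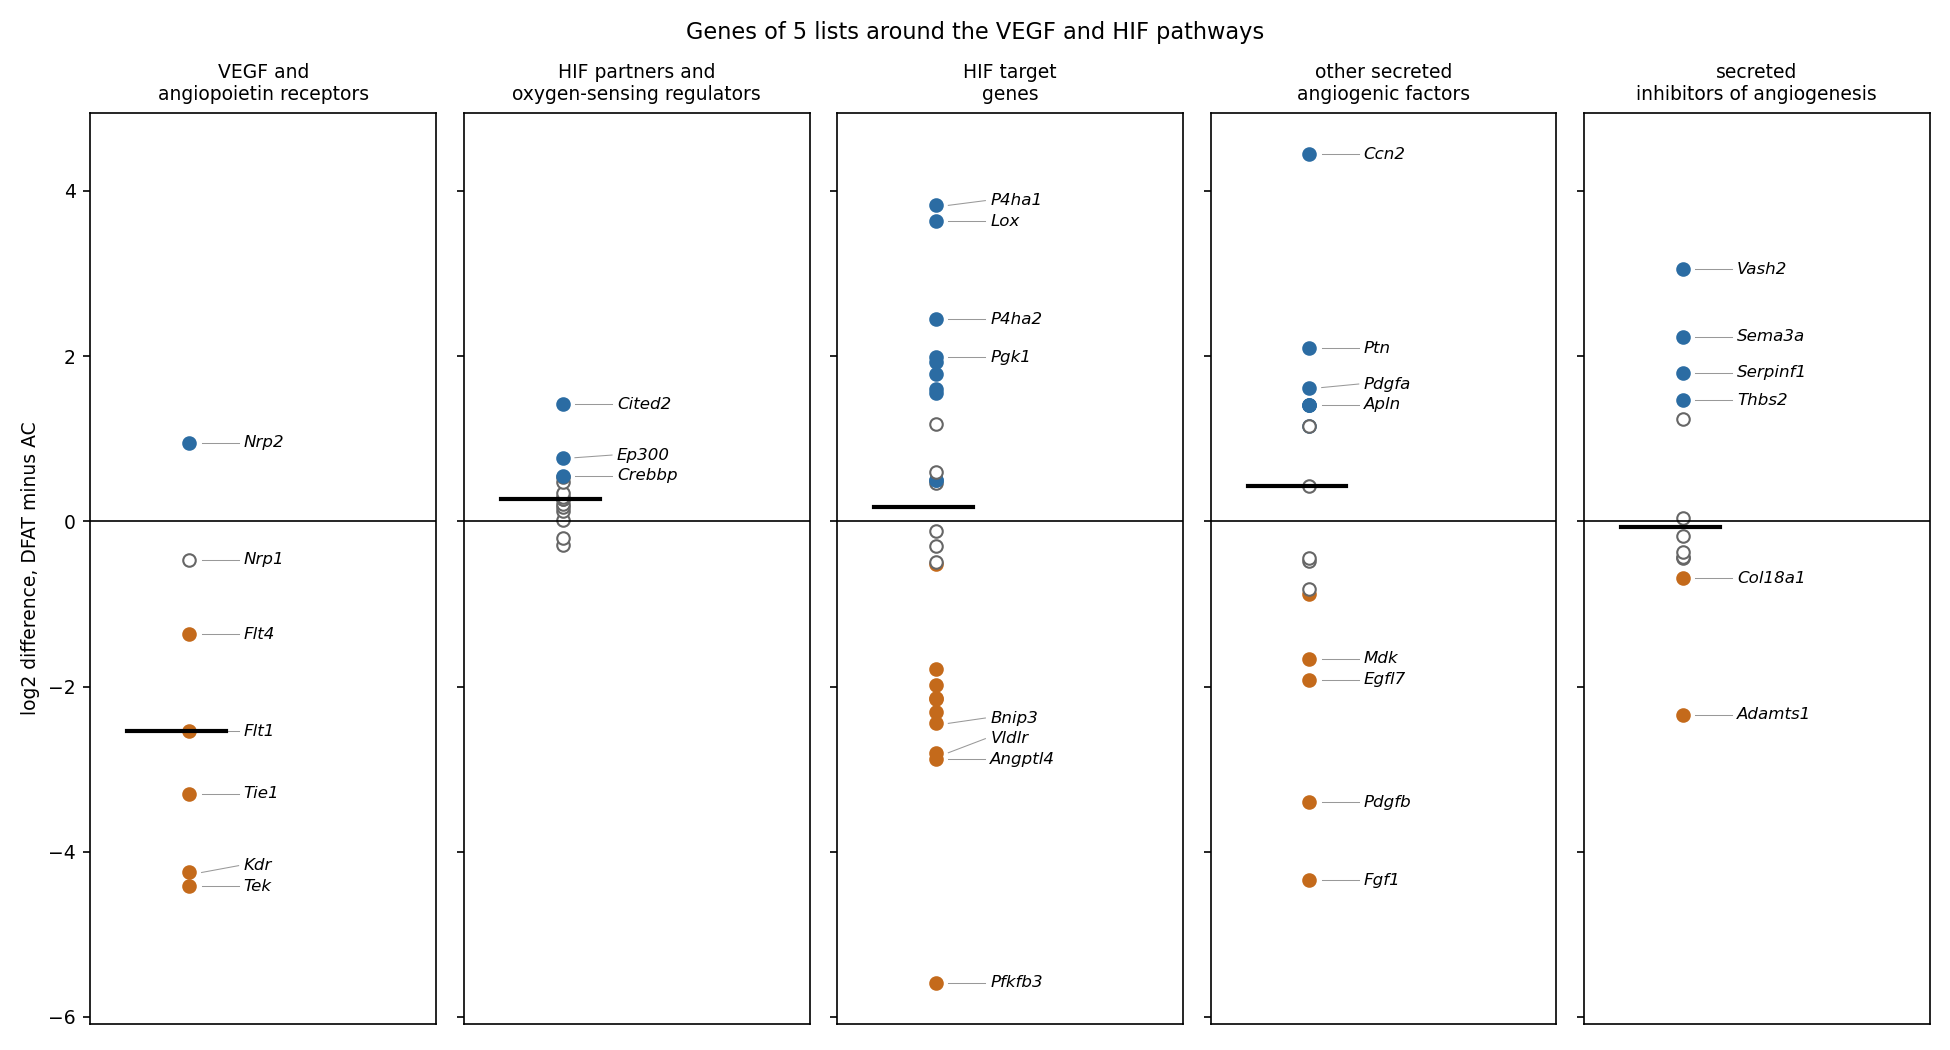
Log2 differences, DFAT minus AC (y axis), of the genes of 5 lists, 1 panel a list, with blue points higher and orange points lower in DFAT cells at a limma adjusted p under 0.05, open points not past the test, and a bar at the median. The receptors lie mostly under 0, with a median of -2.54, while HIF targets and the secreted factors spread on both sides.

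The genes with the pattern most like each member were found by the root mean square distance over the 6 arrays, after each gene was centred on its own mean. The search covered 9834 genes whose mean over the 6 arrays was above 5.91, the mean of the background levels. A gene could pass through 1 group alone, and the means of Vegfc and Angpt2 were not above this limit. With 6 arrays in 2 groups, the distance mostly reflects the size of the group difference. Vegfa was nearest to Syf2 (0.0533 log2 units) and Apip (0.0606), and Vegfb to Abhd6 (0.0557) and Hibadh (0.0593). Pgf was nearest to Rdh14 (0.0527) and Arrdc3 (0.0661), Angpt1 to Cfl1 (0.0571) and Tram1 (0.0593), Angpt2 to Cnst (0.0742) and Gstm1 (0.0878), and Vegfc to Ceacam1 (0.0897) and Pllp (0.159). Epas1 was nearest to Krt18 (0.170), a keratin gene of simple epithelia, and Ephx2 (0.191), which fell by 7.81 and 7.43 on the log2 scale. On the DFAT arrays Krt18 gave 2.96 to 3.85 and Ephx2 3.55 to 4.14, under background, so these sizes depend on that level. With the common floor the difference of Krt18 was -5.05.

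For Hif1a the nearest genes were F3 (0.151) and Mapk6 (0.204). F3, which encodes tissue factor, the starter of blood clotting, gave 8.73, 11.33 and 11.03 in AC, against 10.63, 10.50 and 10.49 in DFAT cells. Mapk6, an atypical MAP kinase, gave 8.13, 10.70 and 10.45 in AC, against 9.81, 9.86 and 9.88 in DFAT cells. Both were low on AC replicate 1, as Hif1a was.

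**Figure D5:**
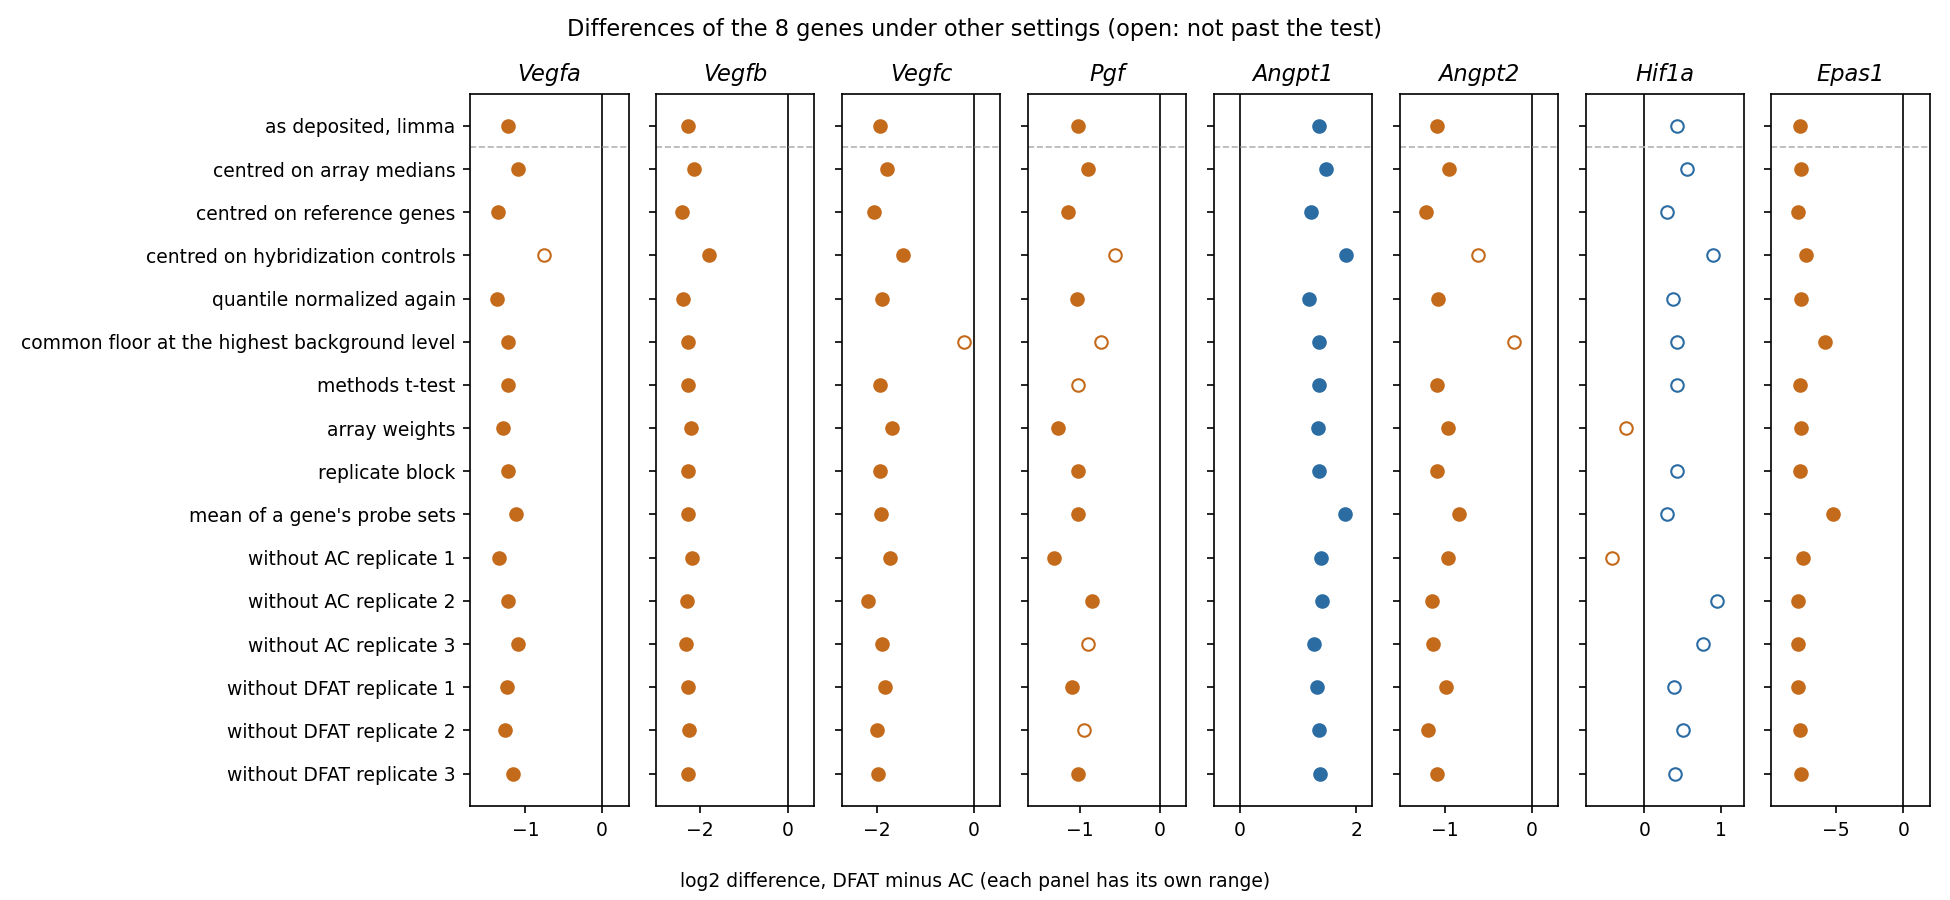
Log2 differences, DFAT minus AC (x axis, own range in each panel), of the 8 genes as deposited and under 15 other settings of scaling, floor, test and left-out array, with filled points past the test and open points not. Vegfb, Angpt1 and Epas1 are filled throughout, Pgf is open in 5 settings, and Hif1a is open in all and changes sign in 2.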

How the data were processed

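The authors deposited log2 values made by RMA, run in R with the Bioconductor package affy, with versions not given in the sources used here. RMA subtracts background, equalizes the distributions of the arrays and combines the probes of each probe set. Which arrays were normalized together is not stated, and without scanner values, which were not used here, the MAS5.0 detection calls of the methods could not be repeated. Depth has no meaning for arrays, and their number, 3 per group, limits the precision.

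Of 45037 probe sets, after 64 control probe sets were left out, 34945 had 1 symbol in the platform annotation, 932 had several and 9160 had none. Entrez IDs found 34741 in RefSeq of GRCm38.p6, where 0 had another symbol. The comparison of DFAT with AC used limma 3.58.1 under R 4.3.3, with lmFit, eBayes and no filter. P-values were two-sided, adjusted by the Benjamini-Hochberg method over every probe set, with a threshold of 0.05, and the step was also tested on simulated data. Ratios of 2 members within an array were compared by exact two-sided permutation. For the arrays the methods name a fold rule and MAS5.0 calls and no test. The equal-variance t-test that they name for other data, called the methods' t-test, was run as an alternative. Python 3.11.15, numpy 2.4.6, pandas 2.3.3 and matplotlib 3.10.9 made tables, promoter searches and figures.

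The members, lists, marker genes and tests were chosen with earlier results of these data known. The rule for named genes took every probe set of the members, every measured receptor, from each other pathway list the 4 largest increases and the 4 largest decreases past the test without overlap of the groups, and the 2 genes nearest to each member. Background levels came from 87 genes. Alternatives were other scalings (11 of 14 reference genes and 18 hybridization control probe sets were measured), floors, a filter that kept 22519 probe sets, other variance models, array weights, a block for the replicate number, other choices of probe set, other percentiles, and leaving out each array. The common floor and the background list without Odf2 were chosen after seeing the data.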

Additional observations from a re-analysis of the deposited data

How the results depend on the processing

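Angpt1, Vegfb and Epas1 kept their direction and their call under all 19 alternatives, Vegfa and Vegfc in 18, Angpt2 in 17 and Pgf in 14. Hif1a never passed the test and reversed to -0.24 with array weights (limma adjusted p = 0.592) and to -0.42 without AC replicate 1 (limma adjusted p = 0.0572), with a range of -0.42 to 0.96 when each array was left out. Members called lower were 6 as deposited, 3 with hybridization controls, where Vegfa, Pgf and Angpt2 were lost, 3 with the common floor, where Vegfc, Pgf and Angpt2 were lost, and 5 to 6 when each array was left out, while 1 was called higher throughout these. The common floor also changes the test for genes that lie above it. Vegfa kept its difference of -1.23 there, while its limma adjusted p went from 0.000545 to 0.0101.

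Over the 77 pathway list genes measured, 25 were higher and 22 lower. The number lower was 35 with a floor at each array's own background level and 13 with the common floor. Leaving out each array gave 23 to 33 higher and 18 to 26 lower. Probe sets called lower were 8133 as deposited, 3405 with hybridization controls, 31263 with the floor at each array's level and 3322 with the common floor, which called 5761 higher in place of 9152. Leaving out each array gave 7279 to 10674 higher and 5881 to 10324 lower. The level floor differs between arrays, so a probe set at the floor on every array gets a difference by construction. It also turned the ratio of Vegfc over Vegfa to 0.67, and the common floor turned it to 1.02. The cause of the other shifts was not tested. Over all probe sets the median difference was -0.06 in the deposited values, 0.40 with hybridization controls, -0.19 with reference genes and 0.07 with array medians, so each change is relative to that shift.

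Same-numbered arrays of the groups had correlations of -0.02, -0.03 and 0.01 in their deviations from the group means, which show no pairing. With 3 arrays per group this check cannot exclude one, so pairing is unknown. With the replicate number as a block, 1 member was higher and 6 lower, as without it, with 27 and 22 pathway genes and 8639 and 7384 probe sets. In the deviations, AC replicate 1 correlated best with DFAT replicate 2, not with its own number, but only at 0.04. With the 90th and the 99th percentile as background level, 2 and 4 members were at background in DFAT cells. Of 759 values of members and named genes under the alternatives, 724 kept direction and side of the threshold, 30 lost the call, 3 gained one and 2 reversed. Signal near background limits Vegfc, Pgf, Angpt2, Epas1, the receptors other than Nrp1 and Nrp2, and Fgf1, Pdgfb and Mdk. It also limits Vash2 and Sema3a, at background in AC, and Nrg1 and Esm1, at background on all 6 arrays.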
